A study of Mus musculus with 12 samples.

Results

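Of 12 mouse heart libraries, 7 held large amounts of atrial cardiomyocyte transcripts and are called atria-rich here, and 5 held almost none and are called atria-poor. The members of each class were chosen by the measured mean level of the atrial genes Myl7, Myl4 and Sln, so differences between the classes are given as a description, without p-values. The atria-rich libraries were Flox sedentary 3, Flox exercise 2, KO sedentary 1, 2 and 3, and KO exercise 1 and 3. The atria-poor libraries were Flox sedentary 1 and 2, Flox exercise 1 and 3, and KO exercise 2, and values of atria-poor libraries are listed below in that order.

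The study sequenced total RNA from mouse hearts, labelled as whole heart, in 4 groups of 3 libraries. Flox mice carried CITED4 flox/flox alleles, and knockout (KO) mice came from crossing that line with aMHC-cre mice, in which a cardiac myosin heavy chain promoter drives cre, so that Cited4 is removed in cardiomyocytes. Mice of each genotype were sedentary or ran voluntarily on wheels for 8 weeks (the animals' ages are not stated in the sources used here). All groups share the floxed alleles, and no group carries cre with intact Cited4 alleles. Sedentary and exercise are the words of the labels. The bracketed sample codes carry an E beside the sedentary word and an S beside the exercise word, which reads the other way, so every treatment named here is a label. The labels do not say which animal gave which library, and p-values of the study's comparisons measure the spread between these samples.

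Atrial and ventricular cardiomyocytes build their sarcomeres from partly different proteins. Atrial cells use the light chains encoded by Myl7 and Myl4 where ventricular cells use those of Myl2 and Myl3, and they restrain the calcium pump of the sarcoplasmic reticulum mainly with sarcolipin (Sln), where ventricular cells use phospholamban (Pln). The atria also store atrial natriuretic peptide in granules and release it on stretch, which lowers blood volume and pressure. In the adult mouse, Bmp10 is known as a gene of right atrial cardiomyocytes.

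The promoters of 4 atrial genes are shown because these genes were higher in every atria-rich library (Myl7, Nppa and Mybphl) or parted the atria-rich libraries from each other (Bmp10). Each line gives the 250 bases before the gene's start, from RefSeq on GRCm38.p6, in the direction of transcription, and capitals mark a motif found by the search described after them.
Myl7, chr11:5898783-5899032, minus strand: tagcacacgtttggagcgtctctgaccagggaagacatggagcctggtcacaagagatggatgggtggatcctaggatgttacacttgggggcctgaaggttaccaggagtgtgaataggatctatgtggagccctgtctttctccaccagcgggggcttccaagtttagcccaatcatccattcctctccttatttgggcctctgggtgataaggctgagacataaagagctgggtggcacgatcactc
Nppa, chr4:148000472-148000721, plus strand: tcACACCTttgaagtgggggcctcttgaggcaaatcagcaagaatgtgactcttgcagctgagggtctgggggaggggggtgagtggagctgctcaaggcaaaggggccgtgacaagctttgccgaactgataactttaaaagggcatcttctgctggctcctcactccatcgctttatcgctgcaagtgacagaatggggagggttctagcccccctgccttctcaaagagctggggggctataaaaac
Mybphl, chr3:108364661-108364910, plus strand: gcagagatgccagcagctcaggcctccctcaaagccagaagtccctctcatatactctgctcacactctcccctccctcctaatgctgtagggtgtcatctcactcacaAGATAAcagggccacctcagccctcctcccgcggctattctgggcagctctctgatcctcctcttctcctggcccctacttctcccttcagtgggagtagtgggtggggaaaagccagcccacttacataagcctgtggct
Bmp10, chr6:87428744-87428993, plus strand: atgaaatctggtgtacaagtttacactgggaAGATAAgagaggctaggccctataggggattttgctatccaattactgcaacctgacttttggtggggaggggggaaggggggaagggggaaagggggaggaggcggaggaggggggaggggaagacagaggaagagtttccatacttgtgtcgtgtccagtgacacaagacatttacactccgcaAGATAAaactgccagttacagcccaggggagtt
The search covered both strands for AGGTCA, a site of nuclear receptors, AGGTGT, a site of T-box factors such as Tbx5 and AGATAA, a site of GATA factors. AGGTCA and AGGTGT share their first letters, and AGATAA overlaps neither. The Bmp10 window held AGATAA at 219 and at 33 bases before the start, and the Mybphl window held it at 141. The Nppa window held AGGTGT on the opposite strand, printed as ACACCT, at 248 bases before the start. None of the 3 motifs was found in the Myl7 window, nor in the window of Myl4, which was searched but not printed and was also higher in every atria-rich library. Only these exact letters were searched, so other forms of the sites are not marked. Among ventricular genes searched but not printed, 1 of 2 Myl2 windows held AGATAA at 211 bases before the start. The other Myl2 window held AGGTCA at 141, and the Myl3 window held none of the 3. Of 27025 promoters of this length, 13.8% held AGGTCA, 11.99% held AGGTGT and 10.3% held AGATAA, so these letters are common in windows of this length.

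The values that made the split left a wide gap. On the scale of log2(CPM + 0.5), where CPM is the usual depth-scaled count, computed after TMM scaling between libraries, the mean of Myl7, Myl4 and Sln was 0.59, -0.06, -0.13, 0.95 and -0.11 in the 5 atria-poor libraries. It was 6.41 in KO sedentary 1, 7.85 in KO exercise 1, 8.24 in Flox exercise 2, 8.44 in KO exercise 3, 8.59 in Flox sedentary 3, 9.99 in KO sedentary 2 and 10.9 in KO sedentary 3. The libraries on either side of this gap were KO sedentary 1 (6.41) and Flox exercise 3 (0.95). The class was unevenly spread over the study's groups: 5 of 6 KO and 2 of 6 Flox libraries were atria-rich, and so were 4 of 6 libraries labelled sedentary and 3 of 6 labelled exercise. All 3 KO sedentary libraries were atria-rich, against 1 of 3 Flox sedentary libraries. In bulk RNA, more or fewer cells of a type and more or less RNA per cell cannot be told apart.

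Depth did not separate the classes, with 17465401 to 20467260 counts per library over all genes. The 13 protein genes of the mitochondrial genome took 21.0% to 27.2% of the counts. Genes with at least 10 counts did separate the classes, at 14246 to 14422 in the atria-poor and 14477 to 15089 in the atria-rich libraries. KO sedentary 2 and 3, the libraries with the most atrial transcripts, had the most (15089 and 15067). Cited4 followed the genotype labels and not the class. It had 295 and 261 counts in the atria-rich Flox libraries and 276, 192, 406 and 431 in the atria-poor Flox libraries, against 0 to 5 counts in each of the 6 KO libraries.

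Of 15226 genes tested for a difference, 205 (1.35%) were higher in every atria-rich library than in any atria-poor library and 163 (1.07%) were lower in every one. A fitted difference of at least 2-fold was also met by 109 of the higher genes (0.716%) and by 2 of the lower genes (0.0131%). The differences were thus large in one direction and small in the other: the median log2 difference was 1.17 over the 205 higher genes and -0.28 over the 163 lower genes, against -0.01 over all genes, of which 47.7% had a fitted difference above 0. Genotype was a term of the fit. Some medians of gene lists are also given without the 3 KO sedentary libraries (4 atria-rich against 5 atria-poor) or in the Flox libraries alone (2 against 4). With any 1 library left out, which makes non-overlap easier to reach, 161 to 365 genes were lower in every atria-rich library (365 without Flox sedentary 2, 266 without Flox exercise 1, 245 without Flox sedentary 3) and 4 to 10 were also at least 2-fold lower. Of the 109 genes, 100 are annotated as protein coding, and 44 had a mean of at least 5 CPM. Genes near 0 in every atria-poor library, such as Tmem163, Mlana and Cilp2, passed the filter on low counts only through atria-rich libraries. Such genes could hardly come out other than higher, so the counts of higher genes partly reflect the filter.

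**Figure D1:**
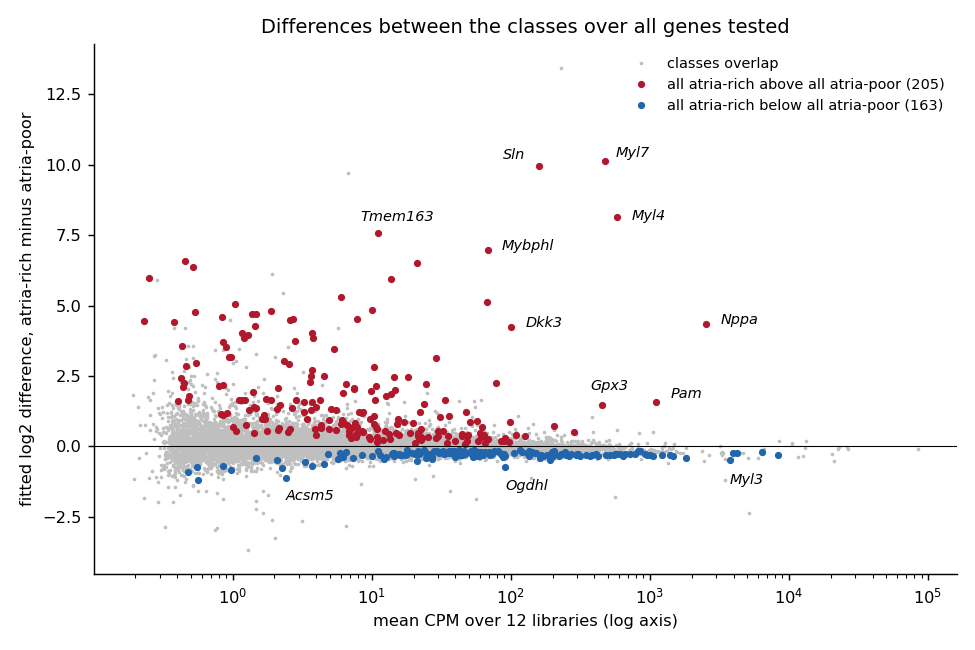
Fitted log2 difference (atria-rich minus atria-poor, genotype as a term) against mean CPM on a log axis, with 1 point for each of 15226 genes. The 205 genes higher in every atria-rich library (red) reach differences above 10, while the 163 genes lower in every one (blue) lie close to 0 and include many abundant genes.

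The light chain and calcium pump genes that made the split were far higher in the atria-rich libraries, as the choice of the classes fixes. Myl7, the atrial regulatory light chain, was at 1.24, 0, 0.0570, 1.27 and 0.0516 CPM in the atria-poor libraries, 46 counts in all, and had a lowest value of 126, a median of 506 and a highest value of 2514 CPM in the atria-rich libraries. Myl4, the atrial essential light chain, was at 3.42, 2.68, 1.94, 2.55 and 2.37 CPM against 154, 536 and 2992 CPM. Sln, the small membrane protein that restrains the calcium pump, was at 0, 0.0525, 0.0570, 0.831 and 0 CPM, 17 counts in all, against 30.7, 164 and 852 CPM. The classes were far apart for all 3 genes, and KO sedentary 1 was the lowest and KO sedentary 3 the highest atria-rich library each time. Fitted log2 differences were 10.15 ± 1.29 (SE) for Myl7, 8.15 ± 0.98 for Myl4 and 9.94 ± 1.38 for Sln, and those of Myl7 and Sln rest on the few counts in the atria-poor libraries.

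Set against the ventricular genes of the same job, the atria-rich libraries spanned a wide range. For every 100 counts of Myl2, the ventricular regulatory light chain, there were at most 0.0167 counts of Myl7 in an atria-poor library, and 2.57 in KO sedentary 1, 5.32 in KO exercise 1, 7.51 in Flox exercise 2, 7.78 in Flox sedentary 3, 9.67 in KO exercise 3, 37.1 in KO sedentary 2 and 68.9 in KO sedentary 3. Counts of Myl4 per 100 counts of Myl3 ran from 4.68 to 153 in the same class and did not exceed 0.0667 in the other. Counts of Sln per 100 counts of Pln ran from 0.733 to 30.8, against 0.0194 or less. These are ratios of counts, not per length, and serve only to order the libraries. KO sedentary 2 and 3 stood apart at the top of all 3 ratios, and KO sedentary 1 was at the bottom of all 3 within its class.

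**Figure D2:**
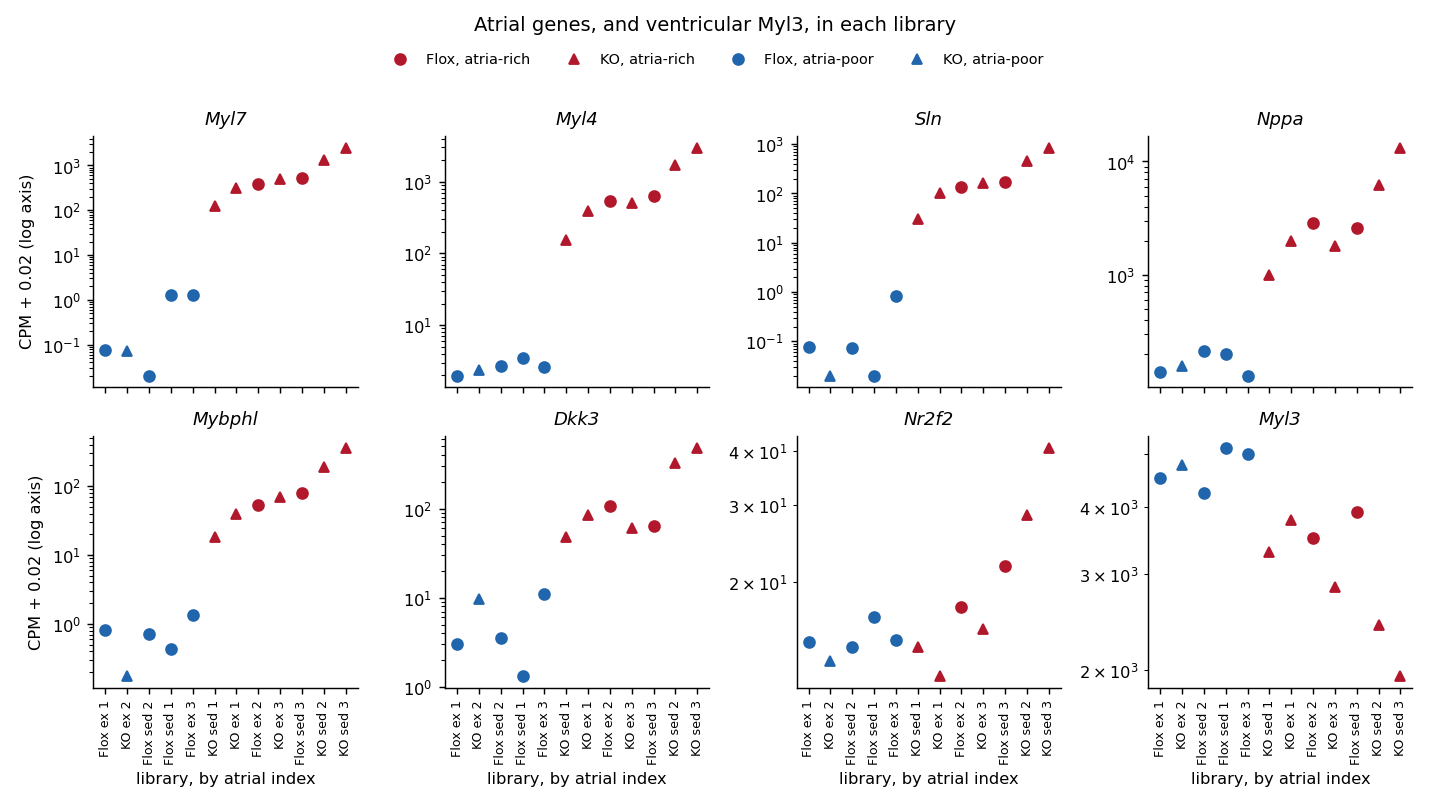
CPM + 0.02 on log axes for 7 atrial genes and the ventricular light chain Myl3 in each of 12 libraries, ordered by the atrial mean, with circles for Flox and triangles for KO. Atria-rich libraries (red) lie above all atria-poor libraries (blue) for Myl7, Myl4, Sln, Nppa, Mybphl and Dkk3, overlap them for Nr2f2, and lie below them for Myl3.

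Among the 5 marker genes named for the split, Nr2f2 and Bmp10 did not separate the classes. Nr2f2, a nuclear receptor that sets atrial identity in the embryo and is also made by venous and lymphatic endothelium, was at 16.6, 14.2, 14.5, 14.7 and 13.2 CPM in the atria-poor libraries and at 12.2 (lowest), 17.5 (median) and 40.6 CPM (highest) in the atria-rich libraries. Its difference was 0.53 ± 0.33, and only KO sedentary 2 and 3 stood well above the rest. Its relative Nr2f1 likewise overlapped (0.63 ± 0.32). Bmp10 overlapped because Flox sedentary 3 and KO exercise 3 had 2 and 1 counts of it, a pattern described further on. The class therefore rests on Myl7, Myl4 and Sln, and these 2 markers do not bear it out in every library.

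Besides Myl7, Myl4 and Sln, 20 genes known from atrial cardiomyocytes were listed. Of these, 10 were higher in every atria-rich library, none was lower in every one and 10 overlapped, with a median difference of 1.56; over all genes 1.35% were higher in every atria-rich library and the median was -0.01. Mybphl, a myosin binding protein related to the filament protein MyBP-H, was at 0.413, 0.683, 0.798, 1.33 and 0.155 CPM in the atria-poor libraries and at 18.5, 70.3 and 362 CPM (lowest, median, highest) in the atria-rich libraries, a difference of 6.96 ± 1.12. The kinase gene Sbk3 was at 7.26, 1.05, 2.05, 0.222 and 2.63 CPM against 14.7, 59.4 and 337 CPM (5.12 ± 1.11). Its neighbour in the kinase family, Sbk2, was at 7.79, 3.78, 4.51, 3.16 and 4.13 CPM against 9.17, 33.4 and 112 CPM (3.13 ± 0.71). For both kinase genes KO sedentary 1 was the lowest atria-rich library and Flox sedentary 1 the highest atria-poor library, and the classes did not overlap.

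Nppa, Pam, Dkk3, Stard10 and Fgf12, also of the atrial list, were higher in every atria-rich library. Nppa, which encodes atrial natriuretic peptide, was at 198, 214, 139, 128 and 157 CPM in the atria-poor libraries and at 1001, 2604 and 13261 CPM in the atria-rich libraries. The fitted difference was 4.35 ± 0.76, or 20.4-fold, and no library of one class reached the other. Pam, the enzyme that amidates peptides and a main membrane protein of atrial granules, was at 379, 481, 415, 401 and 555 CPM against 810, 1303 and 3219 CPM (1.58 ± 0.34, or 2.99-fold). Dkk3, a secreted glycoprotein, was at 1.30, 3.52, 2.97, 11.03 and 9.71 CPM against 47.6, 84.1 and 484 CPM (4.25 ± 0.88). Stard10, a lipid transfer protein, differed by 2.24 ± 0.77 and Fgf12, a fibroblast growth factor homologue that stays in the cell and binds sodium channels, by 5.95 ± 1.08, both without overlap.

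The rest of the natriuretic peptide axis did not follow Nppa. Of 8 genes tested, Nppa and Pam were higher in every atria-rich library and the other 6 overlapped, against 1.35% higher over all genes. Nppb, which encodes the B-type peptide made by both chambers, was at 106 to 278 CPM in the atria-poor and 138 to 611 CPM in the atria-rich libraries (0.22 ± 0.51). The proteases that cut the precursors, Corin and Furin, differed by 0.23 ± 0.16 and 0.19 ± 0.15. The guanylyl cyclase receptors Npr1 and Npr2 were at 0.12 ± 0.19 and -0.07 ± 0.09. Npr3, the clearance receptor and a gene of the endocardium, was at 18.7, 32.7, 27.3, 22.7 and 18.4 CPM against 31.4, 57.9 and 175 CPM, so that only KO sedentary 1 overlapped the atria-poor libraries (1.62 ± 0.50). Nppc was too low to be tested.

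Of the transcription factors and channel genes on the atrial list, Tbx5 and Gja5 were higher in every atria-rich library. Tbx5, a T-box factor of the atria and conduction system, was at 18.5, 26.5, 21.0, 15.7 and 19.5 CPM against 29.0, 39.7 and 91.3 CPM, a 2.10-fold difference (1.07 ± 0.33). Gja5, the gap junction protein connexin 40 of atrial muscle and of fast conducting fibres, was at 9.27, 5.41, 9.01, 7.59 and 5.32 CPM against 11.1, 32.5 and 74.9 CPM, a 4.62-fold difference (2.21 ± 0.53). Hey1, a repressor of the embryonic atria, was at 0.00 ± 0.24, the potassium channel Kcna5 at -0.18 ± 0.30 and the background potassium channel Kcnk3 at 0.01 ± 0.13. These 3 genes overlapped fully between the classes.

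The genes of the muscarinic potassium current, which slows the atria and the pacemaker when vagal nerves release acetylcholine, did not separate the classes. None of 10 was higher or lower in every atria-rich library (median 0.32, 6 above 0, against 47.7% above 0 over all genes), and the median was 0.06 in the Flox libraries alone. Kcnj3, a subunit of the channel, was at 61.0, 79.2, 76.6, 59.3 and 57.2 CPM against 72.0, 131 and 257 CPM, and only KO sedentary 1 overlapped (1.08 ± 0.32). Its partner Kcnj5 was at 0.40 ± 0.15 and the receptor Chrm2 at 0.63 ± 0.21. Among the G protein genes, Gnao1 was at 0.64 ± 0.32, Gnai2 at -0.04 ± 0.11 and Gnb5 at -0.02 ± 0.11. The regulators of G protein signalling Rgs6 and Rgs4 were at 0.48 ± 0.20 and -0.25 ± 0.16, the adenosine receptor Adora1 at -0.09 ± 0.28 and acetylcholinesterase (Ache) at 0.24 ± 0.30. Of 15 other potassium channel genes, none was higher or lower in every atria-rich library (median 0.02).

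Genes of the sinoatrial node and conduction system, tissue that lies in and beside the right atrium, gave no separation. None of 11 tested was higher or lower in every atria-rich library (median 0.26, 8 above 0, against 47.7% over all genes). Hcn4, the main pacemaker channel, was at 0.40 ± 0.40, the calcium channels Cacna1d and Cacna1g at 1.09 ± 0.64 and 0.18 ± 0.32, and the T-box factors Tbx3 and Tbx18 at -0.11 ± 0.15 and 0.26 ± 0.18. Shox2, a node regulator, was at 0.89 ± 0.95 and the cell adhesion gene Cntn2 of conduction fibres at 0.98 ± 1.19. The matrix protein gene Smoc2 was at -0.08 ± 0.11, the connexin gene Gjc1 at -0.13 ± 0.10 and Bmp4 at 0.02 ± 0.26. Isl1 and Vsnl1, which mark the node itself, were too low to be tested, at no more than 0.228 and 2.24 CPM in any library.

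The summed level of the ventricular genes was lower in every atria-rich library. It was 18667, 19274, 18121, 20090 and 18017 CPM in the atria-poor libraries and ran from 9478 over a median of 14500 to 16970 CPM in the atria-rich libraries, without overlap. The mean log2(CPM + 0.5) of the tested genes, in which each gene weighs alike, did overlap. That mean ran from 7.13 to 7.54 in the atria-poor and from 6.57 to 7.49 in the atria-rich libraries. Of 12 genes tested, 10 had a fitted difference below 0 (median -0.25), but only Myl3 was lower in every atria-rich library, against 1.07% of all genes. The median was -0.15 without the KO sedentary libraries, -0.13 without KO sedentary 2 and 3 and -0.13 in the Flox libraries alone. Myl3, the ventricular essential light chain, was at 5131, 4236, 4508, 4996 and 4775 CPM against 1950, 3294 and 3908 CPM, a 1.42-fold difference (-0.50 ± 0.17). Myl2 was at 7427, 7532, 7160, 8981 and 6198 CPM against 3554, 5184 and 6628 CPM (-0.41 ± 0.16), and Flox sedentary 3 overlapped KO exercise 2.

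The other ventricular genes overlapped. The homeobox genes Irx3, Irx4 and Irx5, which hold the ventricular programme, were at -0.24 ± 0.42, -0.19 ± 0.17 and -0.25 ± 0.39, and the repressor Hey2 at -0.37 ± 0.21. Pln was at -0.19 ± 0.16, the LIM protein gene Fhl2 at -0.30 ± 0.18, the inward rectifier channels Kcnj2 and Kcnj12 at 0.03 ± 0.17 and 0.16 ± 0.19, the channel subunit Kcnip2 at -0.26 ± 0.26 and the myosin heavy chain Myh7 at -0.27 ± 0.53. Hand1 was too low to be tested. Of 26 cardiomyocyte genes of all chambers, 19 had a fitted difference below 0 (median -0.08, and -0.02 without the KO sedentary libraries). Tbx20 was higher (0.38 ± 0.11) and Tnni3 (-0.22 ± 0.12) and Tpm1 (-0.21 ± 0.11) were lower in every atria-rich library. Over all genes 1.35% were higher and 1.07% lower. Tnnc1 (-0.35 ± 0.11) and Ckm (-0.33 ± 0.10), named after their values were seen, overlapped. Myh6, the heavy chain that both chambers of the adult mouse heart use, was at -0.03 ± 0.12.

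Nuclear genes of the respiratory chain were slightly lower in the atria-rich libraries. Of 80 such genes, 28 were lower and none was higher in every atria-rich library (median -0.27), and 79 had a fitted difference below 0; over all genes 1.07% were lower in every one. The list's summed level was 47407, 45333, 44075, 52546 and 48289 CPM in the atria-poor libraries and ran from 34377 over 37646 to 43518 CPM in the atria-rich libraries. The classes did not overlap, although Flox exercise 1 and KO exercise 1 lay close to each other. Within the atria-rich class the lowest sum, 34377 CPM, was in KO sedentary 1, which had the lowest atrial mean. KO sedentary 3, with the highest atrial mean, was at 37646 CPM, so the sums did not follow the order of Myl7. Respiratory chain genes were 17.2% of the 163 lower genes and 0.525% of all genes tested. Ndufb8, a subunit of complex I, was at 507, 459, 474, 578 and 494 CPM against 317, 353 and 446 CPM (-0.36 ± 0.12). Others of complex I were Ndufc1 (-0.36 ± 0.13), Ndufb3 (-0.35 ± 0.11), Ndufa5 (-0.33 ± 0.13) and Ndufs3 (-0.33 ± 0.10). Cox4i1 of complex IV was at 1581, 1426, 1473, 1780 and 1697 CPM against 1135, 1220 and 1423 CPM (-0.30 ± 0.11), a gap of only a few CPM between Flox sedentary 2 and KO exercise 1.

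Of 79 genes of the mitochondrial ribosome, 11 were among the 163 lower genes, against 1.07% of all genes. Of 27 genes of fatty acid oxidation, 4 were lower and none was higher in every atria-rich library (median -0.24, 25 below 0). The 4 were the thiolase Acaa2 (-0.34 ± 0.11), the thioesterase Acot13 (-0.32 ± 0.11), the isomerase Eci1 (-0.32 ± 0.11) and the reductase Decr1 (-0.29 ± 0.12). Acaa2 was at 768, 725, 736, 724 and 787 CPM against 462, 555 and 649 CPM. The 13 protein genes of the mitochondrial genome overlapped throughout (median -0.10, and -0.04 without the KO sedentary libraries). Without the 3 KO sedentary libraries, which leaves 4 against 5, the count was 32 lower of 80 for the respiratory chain (median -0.22) and 4 lower of 27 for fatty acid oxidation (median -0.14). Non-overlap is easier to reach in this setting, and over all genes 276 were lower, against 163 with all 12 libraries. The median of fatty acid oxidation was -0.09 in the Flox libraries alone.

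**Figure D3:**
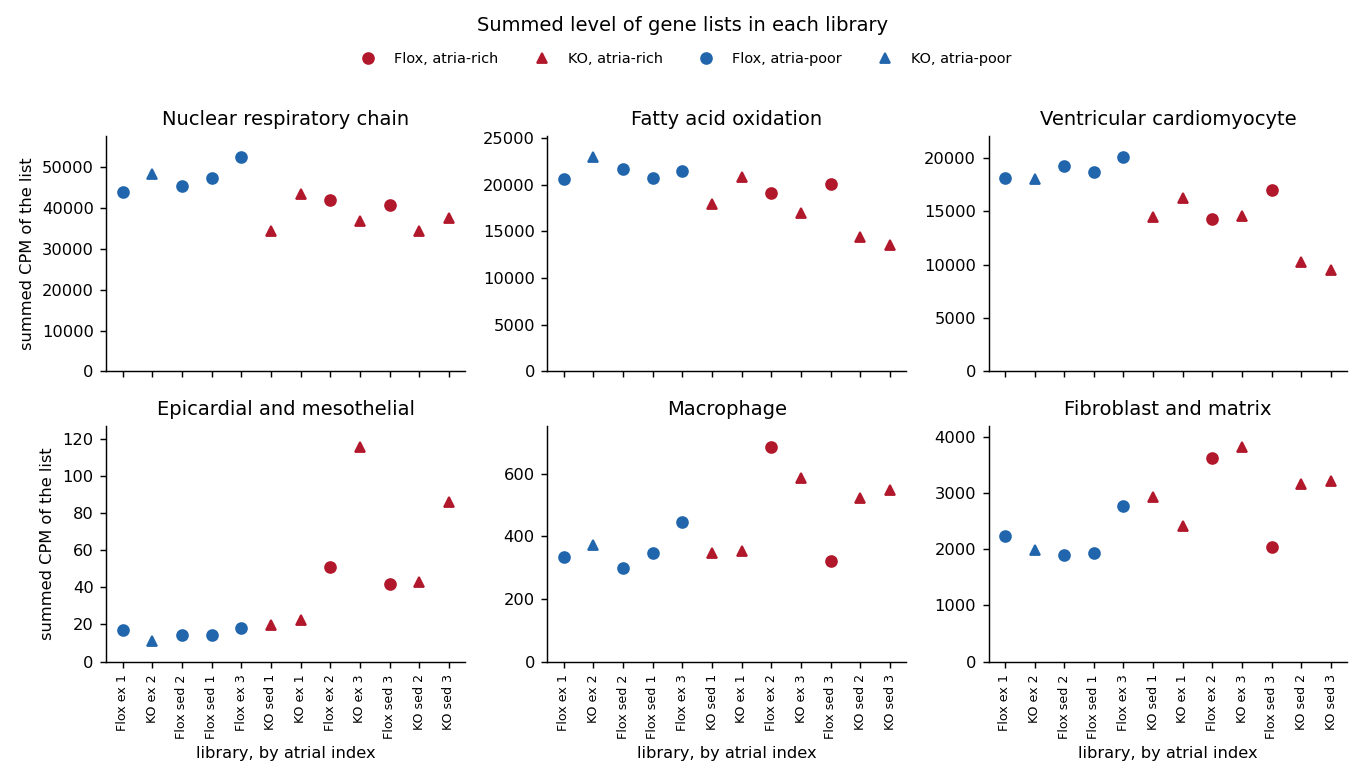
Summed CPM of 6 gene lists in each of 12 libraries, ordered by the atrial mean, with circles for Flox and triangles for KO, and all axes starting at 0. Respiratory chain and ventricular sums are lower in all 7 atria-rich libraries (red) than in the 5 atria-poor libraries (blue), epicardial and mesothelial sums are higher, and the macrophage and matrix sums overlap.

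Genes of other tissues moved with the split, and their part in the results was not tested. Genes of the epicardium and mesothelium, the cell sheets that cover the heart and line the chest cavity, were higher in every atria-rich library in 6 of 12 cases (median 3.46, all 12 above 0), against 1.35% of all genes. The median was 1.19 in the Flox libraries alone. Their summed level was 14.2, 14.0, 17.2, 18.2 and 11.1 CPM in the atria-poor libraries and ran from 19.6 over 42.7 to 116 CPM in the atria-rich libraries. Upk3b, a membrane protein of mesothelial cells, was at 0.118, 0.998, 0.570, 1.27 and 0.620 CPM against 2.22, 6.41 and 19.4 CPM (3.44 ± 0.71). The others of the 6 were the surface protein Msln (3.86 ± 1.02), the keratin Krt19 (4.72 ± 1.24), Lrrn4 (4.28 ± 0.88), the mucin Muc16 (4.03 ± 0.93) and Upk1b (3.96 ± 0.87), each under 1 CPM in every atria-poor library. Krt19, Lrrn4, Muc16 and Upk1b reached at most 0.222, 0.158, 0.368 and 0.158 CPM there. They passed the filter on low counts only through atria-rich libraries, so their direction was largely set by the filter. The 6 of 12 and the median of 3.46 therefore partly reflect the filter. Wt1, an epicardial transcription factor, did not follow (0.14 ± 0.24). The highest library of the list was KO exercise 3 and not KO sedentary 3, so its order was not that of Myl7.

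Cartilage and valve genes were higher in every atria-rich library in 2 of 8 cases (median 0.81), against 1.35% of all genes. The median was 0.39 without the KO sedentary libraries and 0.24 in the Flox libraries alone. Cilp2, a cartilage matrix protein, was at 0.0590, 0.210, 0.456, 0.222 and 0.465 CPM against 5.55, 22.0 and 102 CPM (6.50 ± 1.15), and Comp, another matrix protein, at 2.60, 3.36, 4.68, 4.65 and 3.56 CPM against 9.24, 12.2 and 36.4 CPM (1.65 ± 0.40). The defining cartilage genes Acan, Col2a1 and Col9a1 were at no more than 0.579, 0.285 and 0.160 CPM in any library. Of 30 fibroblast and matrix genes, Comp alone was higher in every atria-rich library, although 29 had a fitted difference above 0 (median 0.40, and 0.21 in the Flox libraries alone). Their summed level overlapped, at 1889 to 2757 CPM in the atria-poor and 2032 to 3810 CPM in the atria-rich libraries.

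Among endocardial, venous and lymphatic endothelial genes, 2 of 13 were higher in every atria-rich library (median 0.19, and 0.06 in the Flox libraries alone), against 1.35% of all genes. They were Plvap, which forms the diaphragms of fenestrated vessels (10.04, 10.6, 14.6, 9.20 and 8.42 CPM against 15.1, 25.5 and 81.5 CPM; 1.51 ± 0.48), and the cadherin Cdh11 (3.54, 3.99, 6.50, 4.99 and 4.18 CPM against 8.68, 10.73 and 16.5 CPM; 1.21 ± 0.21). Of 18 endothelial genes, the receptor Flt1 was lower in every atria-rich library (-0.21 ± 0.10, median of the list -0.10, and -0.17 without the KO sedentary libraries), against 1.07% of all genes. Macrophage genes all had a fitted difference above 0 (15 of 15, median 0.44) and all overlapped, led by Fcgr1 (1.26 ± 0.48), Cd68 (1.08 ± 0.32) and Itgam (0.77 ± 0.40). Their summed level was 300 to 446 CPM in the atria-poor and 322 to 686 CPM in the atria-rich libraries. Immediate early genes also overlapped throughout (14 of 14 above 0, median 0.61), and their highest library was KO sedentary 3. Their median was 0.30 without the KO sedentary libraries and 0.36 in the Flox libraries alone.

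Of 11 genes of the fetal and stressed heart, Nppa, also counted above, and the matricellular gene Ccn2 (0.87 ± 0.47) were higher and Myh7b lower in every atria-rich library. Over all genes 1.35% were higher and 1.07% lower. Smooth muscle (14 genes, median -0.06), Schwann cell (13, -0.01), red blood cell (5, -0.09), lymphoid (6, -0.07), brown adipocyte (7, 0.07) and skeletal muscle genes (10, 0.22, but -0.21 in the Flox libraries alone) held no gene that was higher or lower in every atria-rich library. Of 17 genes of cardiac neurons only 3 were high enough to be tested, and all 3 overlapped. All 11 lung epithelial genes were too low to be tested, the highest at 0.649 CPM. White adipocyte genes overlapped in all 14 cases (median 0.35), but their defining markers were high in the KO sedentary libraries, which are all atria-rich. Adipoq, the adipocyte hormone, was at 6.13, 10.3 and 16.4 CPM in those 3 libraries, at 0.202 to 0.747 CPM in the other 4 atria-rich libraries and at 0.158 to 1.55 CPM in the atria-poor libraries. Without the KO sedentary libraries the median of the adipocyte list was -0.31, that of the atrial list 1.18 with 11 of 20 higher, and that of the epicardial and mesothelial list 3.53 with 8 of 12 higher. Non-overlap is easier to reach in this setting, and over all genes 344 were higher, against 205 with all 12 libraries.

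**Figure D4:**
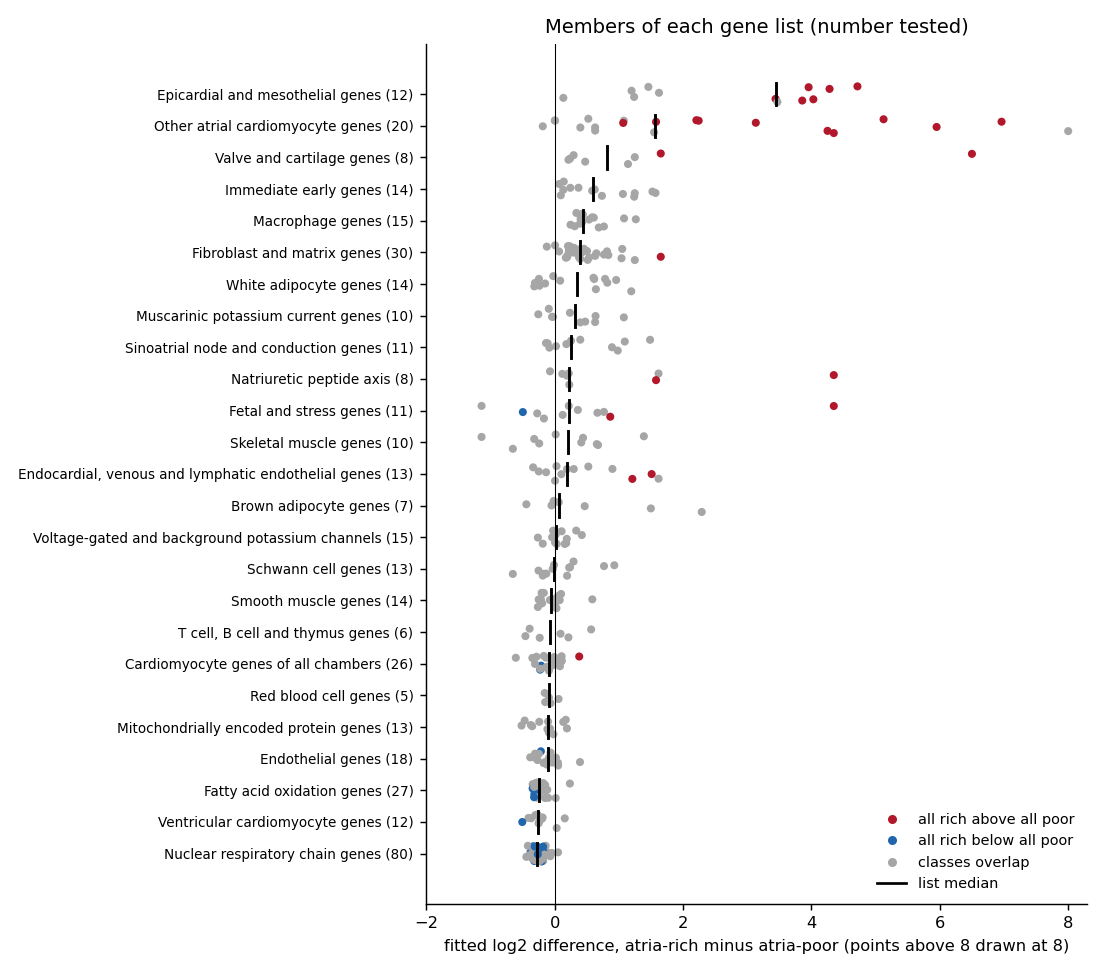
Fitted log2 difference (atria-rich minus atria-poor, genotype as a term) of each tested member of 25 gene lists, with a black bar at the list's median and values above 8 drawn at 8. Atrial genes reach furthest to the right, the epicardial and mesothelial list has the highest median, and nuclear respiratory chain genes cluster just below 0.

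The 15 largest differences among genes without overlap and with a mean of at least 5 CPM also held genes outside the lists, such as the zinc transporter Tmem163 (7.56 ± 1.38). It was at 0.177, 0, 0, 0.166 and 0 CPM in the atria-poor libraries, 6 counts in all, and at 2.89, 9.88 and 57.1 CPM in the atria-rich libraries. Rxfp1, the relaxin receptor, was at 0.118, 0.735, 0.399, 0.720 and 0.258 CPM against 2.65, 9.29 and 32.7 CPM (4.51 ± 0.83). Mlana, known as a melanosome protein of pigment cells, was at 0.236, 0.210, 0.228, 0.111 and 0.103 CPM against 1.64, 5.46 and 30.7 CPM (5.32 ± 1.03), and Lmntd1, a lamin tail domain protein, differed by 4.84 ± 0.78. For each of these 4 genes KO sedentary 1 was the lowest and KO sedentary 3 the highest atria-rich library, as for Myl7. Chosen after their values were seen, the secreted selenoprotein Gpx3 was 2.77-fold higher (178 to 214 CPM against 296 to 1375 CPM) and the vessel growth factor Angpt1 2.35-fold higher (17.1 to 30.5 CPM against 31.8 to 103 CPM).

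The 15 largest lower differences under the same rule were small. Ogdhl, a subunit of an oxoglutarate dehydrogenase, was at 151, 100, 109, 114 and 141 CPM against 34.3, 75.8 and 92.0 CPM, a 1.66-fold difference (-0.73 ± 0.25). Tcf15, a transcription factor of cardiac endothelium, was at 33.2, 23.6, 25.3, 27.4 and 24.1 CPM against 14.4, 17.3 and 21.2 CPM (-0.52 ± 0.12). Myh7b, a myosin heavy chain gene, was at 249, 250, 224, 223 and 224 CPM against 120, 170 and 204 CPM (-0.49 ± 0.15). Besides these and Myl3, the rule named N4bp3, the replication regulator Gmnn, Dipk2b, the cytochrome oxidase subunit Cox4i2, the mitochondrial creatine kinase Ckmt2 (-0.41 ± 0.12), Sema3g, Macrod1, Dctpp1, Gm49708, the transaminase Gpt and Luc7l, from -0.46 for N4bp3 to -0.39 for Luc7l. The only genes past 2-fold, both low, were Gm4956 (0.610 to 1.14 CPM against 0.303 to 0.421 CPM) and the acyl-CoA synthetase Acsm5 (3.30 to 4.31 CPM against 0.267 to 2.37 CPM, 2.19-fold lower).

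Within the atria-rich class, Bmp10 divided the libraries sharply. Bmp10, a growth factor of the atrial wall, had 10645 counts in Flox exercise 2, 7017 in KO exercise 1, and 2715, 17647 and 20369 in KO sedentary 1, 2 and 3, against 2 in Flox sedentary 3, 1 in KO exercise 3 and 2 in all atria-poor libraries together. For every 100 counts of Myl7 there were 144, 117, 104, 59.9 and 37.0 counts of Bmp10 in the first 5 and 0.0196 and 0.0105 in the other 2. The atrial mean of the 2 libraries without Bmp10, 8.59 and 8.44, lay inside the range of the 5 with it, 6.41 to 10.9. Each side held a Flox and a KO library and libraries of both treatment labels. This division was made after the values were seen, and the differences along it are a description.

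Along that division 49 genes (0.322% of those tested) were at least 2-fold higher and 9 (0.0591%) at least 2-fold lower in the 5 libraries, without overlap. Hamp, which encodes the iron hormone hepcidin and is known from the right atrium in the mouse, had 108 counts in Flox exercise 2, 57 in KO exercise 1, and 20, 602 and 963 in KO sedentary 1, 2 and 3, against 2 in Flox sedentary 3 and 0 in KO exercise 3 and in each atria-poor library. Cacna2d2, a calcium channel subunit, was at 12.99, 13.7, 6.03, 37.2 and 41.7 CPM in the 5, at 2.42 and 2.24 CPM in the 2 and at 1.22 to 1.73 CPM in the atria-poor libraries. Cpne5, a calcium-dependent lipid binding protein, was at 3.10, 5.67, 2.70, 8.33 and 8.49 CPM against 0.404 and 0.373 CPM. Sfrp5, a secreted Wnt inhibitor, was at 4.89, 6.44, 1.98, 11.7 and 8.81 CPM against 0.858 and 0.853 CPM. In the 2 libraries without Bmp10, Cpne5 and Sfrp5 lay within the range of the atria-poor libraries (0 to 0.472 and 0.388 to 0.969 CPM).

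Some genes of this set are known from the node and conduction system. Cntn2 was at 9.36, 28.0, 15.5, 12.8 and 8.86 CPM in the 5 against 0.959 and 0.533 CPM in the 2, but the atria-poor libraries also held it, at 7.26, 2.31, 6.90, 0.166 and 2.68 CPM. The channel gene Cacna1d was at 4.99, 4.43, 3.81, 11.995 and 14.6 CPM against 2.22 and 1.81 CPM, and the intracellular calcium channel Ryr3 at 6.62, 5.67, 2.61, 14.8 and 8.03 CPM against 1.56 and 0.960 CPM. Lower in the 5 was the kinase gene Prkcq, at 2.89, 5.31, 7.62, 4.16 and 2.33 CPM against 8.28 and 17.4 CPM.

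**Figure D5:**
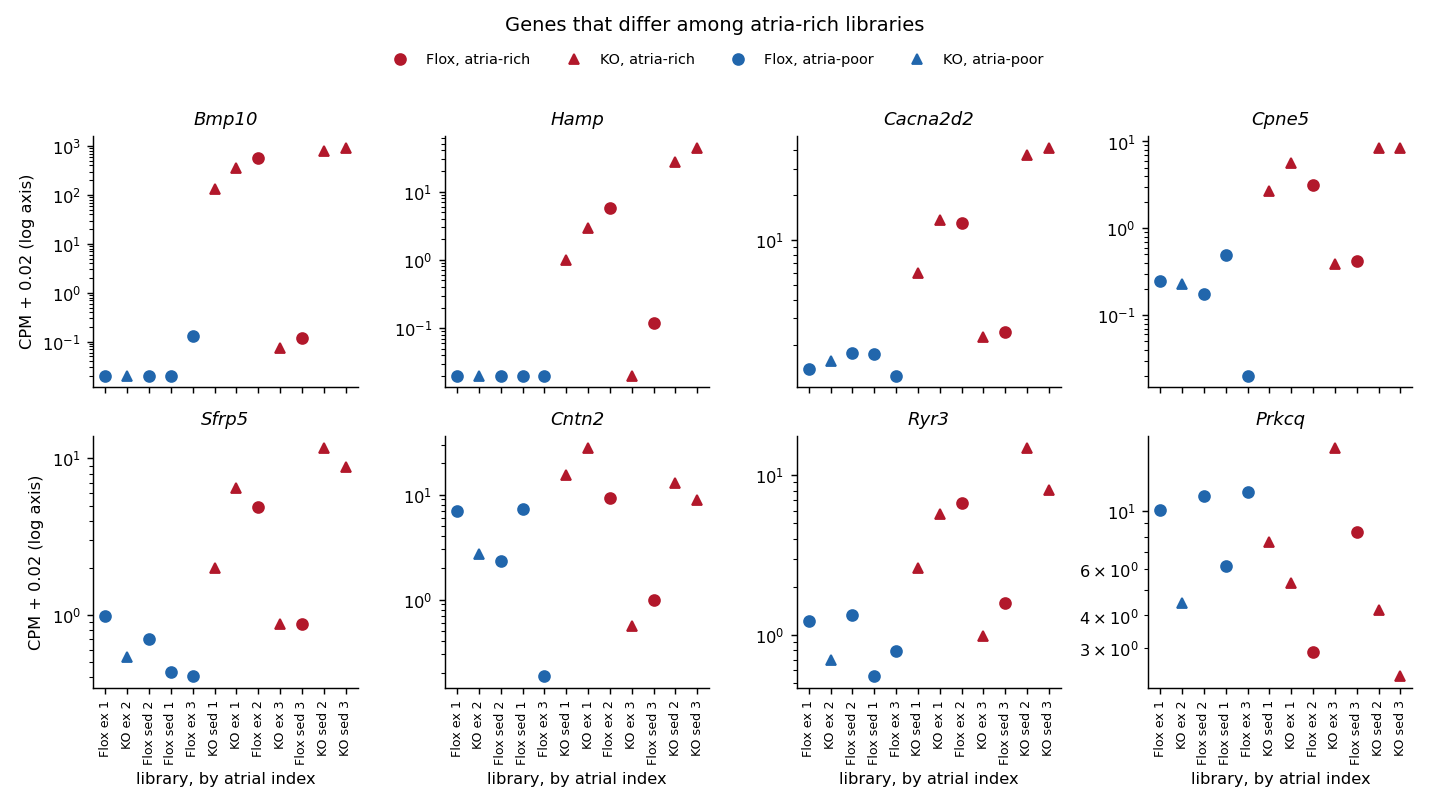
CPM + 0.02 on log axes for 8 genes in each of 12 libraries, ordered by the atrial mean, with circles for Flox and triangles for KO. Flox sedentary 3 and KO exercise 3 lie with or near the atria-poor libraries (blue) for Bmp10, Hamp, Cpne5 and Sfrp5 although both are atria-rich (red).

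The study's own comparisons were then fitted with and without the atrial class as a term (edgeR quasi-likelihood test, Benjamini-Hochberg adjusted p under 0.05 over 15226 genes). For KO over Flox averaged over the treatment labels, 4 genes passed with the class term (0.0263%) and 8 without it (0.0525%). Cited4 fell by 7.55 on the log2 scale (SE 0.44, adjusted p = 5.7e-05), while Cidec, a lipid droplet protein, rose by 3.76 ± 0.43 (adjusted p = 0.0106) and Phlda3 by 0.75 ± 0.11 (adjusted p = 0.0487). Atp6v0e2, Ccnd2 and Ttll1 (adjusted p = 0.172 each) and Cyp2e1 (0.0513) passed only without the term. Their differences with the term, 0.95 ± 0.17, 0.56 ± 0.10, -0.60 ± 0.11 and 3.04 ± 0.42, were close to those without it, 0.97 ± 0.14, 0.57 ± 0.09, -0.64 ± 0.09 and 2.87 ± 0.35. The count with the term was 1 without Flox sedentary 3, Flox exercise 2 or KO exercise 2, 2 without KO exercise 1 or 3, and 7 without Flox exercise 3.

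Under the sedentary label, where the classes were most uneven between the genotypes, 6 genes differed between KO and Flox with the class term (0.0394%) and 19 without it (0.125%). The 6 were Cited4, Cidec (6.16 ± 0.59, adjusted p = 0.00169), Cyp2e1 (5.08 ± 0.60, adjusted p = 0.0214), Adipoq (5.82 ± 0.80, adjusted p = 0.0418), the activin receptor Acvr1c (7.51 ± 1.06, adjusted p = 0.0397) and Phlda3 (1.01 ± 0.15, adjusted p = 0.0418), all higher in KO but Cited4. The count was 0 without Flox sedentary 3, 2 or 3 without Flox sedentary 1 or 2, Flox exercise 1 or 2, KO sedentary 3 or KO exercise 2 or 3, and 108 without KO sedentary 1. For exercise over sedentary averaged over genotype, 1 gene passed with the term (0.00657%) and 4 without it (0.0263%). The clock repressor Bhlhe40 fell by 0.80 (SE 0.09, adjusted p = 0.0167), and its values were 32.6 to 50.1 CPM in the 6 libraries labelled exercise and 61.5 to 75.7 CPM in the 6 labelled sedentary, without overlap. No gene passed when Flox sedentary 2 or 3, Flox exercise 2 or 3, or KO exercise 1 or 3 was left out, 5 passed without Flox sedentary 1, 3 without Flox exercise 1, 4 without KO sedentary 2 and 90 without KO sedentary 1. No gene passed the interaction of genotype and treatment with the term by edgeR, where the smallest adjusted p was 0.338 and 1370 genes had an unadjusted p below the same limit. DESeq2 called 35 genes. By edgeR, 1 gene passed without Flox exercise 1 and 87 passed without KO sedentary 1.

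For the atrial genes only the fit without the class term is given, since Myl7, Myl4 and Sln chose the class. KO over Flox under the sedentary label was 2.94 ± 3.10 for Myl7 (edgeR, adjusted p = 0.741), 2.76 ± 1.75 for Nppa (adjusted p = 0.536) and 2.97 ± 2.79 for Sln (adjusted p = 0.703). Exercise over sedentary averaged over genotype was -1.34 ± 2.08 for Myl7 (edgeR, adjusted p = 0.895). None of these 4 differences passed.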

How the data were processed

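The deposited table held estimated counts per gene symbol in 12 heart libraries, in 4 groups of 3, not scaled between libraries. FastQC and Salmon are named without version in the submitters' processing notes, as are the builds mm9 and mm10 without a role. Annotation, strand setting and the summing of transcripts are not stated in the sources used here, so overlapping and near-identical genes are uncertain. Per the labels' protocols, RNA was taken with Trizol, depleted with a RiboZero kit and built into libraries with an NEB kit. Of 55874 entries, 1696 named no gene and were left out (at most 0.186% of counts), which leaves 17465401 to 20467260 counts per library. Expected counts were rounded to whole numbers, genes were filtered with filterByExpr by the 4 groups (15226 kept) and libraries were scaled by TMM in edgeR 4.0.16 (R 4.3.3, limma 3.58.1). The class difference was fitted with genotype as a term, as a log2 difference ± SE. The study's comparisons used the quasi-likelihood test on the 4 groups with the class as a further term. Steps were tested on simulated data. Levels are TMM-scaled CPM, not per length, so levels of different genes were not compared.

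The members, lists and rules were chosen with earlier results of these data known. Genes named were Cited4, every member of the 6 atrial, ventricular, node, natriuretic and muscarinic lists, up to 5 non-overlapping members with the largest difference of each other list (else up to 3), the 15 largest differences in each direction among non-overlapping genes with a mean of at least 5 CPM, and, for each study comparison, at most 8 genes in each direction that passed. Some genes that these rules name are not reported here. Other genes are said to be chosen after their values were seen, or were named beside a listed gene for its role. Alternatives were DESeq2 1.42.0 and its size factors, no filter, other covariates, a continuous atrial mean, mitochondrial genes left out of library sizes, each genotype alone, a replicate block and each library left out. Leaving out the 3 KO sedentary libraries, or KO sedentary 2 and 3, was added after seeing the data.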

Additional observations from a re-analysis of the deposited data

Results flagged for a closer look

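The mean log2(CPM + 0.5) of each list was examined within each class, 54 means in all, and in 5 a single library lay far from the others of its class. Chance alone gives about 1 such library in 20 sets examined. In the atria-rich class, KO sedentary 2 had a mean of 3.06 for neuronal genes (the others 2.04 to 2.47), a mean of only 3 genes, and KO sedentary 3 had a mean of 5.20 for immediate early genes (the others 3.14 to 3.92). KO exercise 3 was low for lymphoid genes, at 0.349 (the others 0.615 to 0.792), and for endothelial genes, at 6.19 (the others 6.49 to 6.68). In the atria-poor class, Flox exercise 3 had a mean of 13.45 for the protein genes of the mitochondrial genome (the others 13.1 to 13.2).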

How the results depend on the processing

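Over the 79 named genes and all alternatives, 1858 of 1889 refitted differences moved by less than the spread within the classes. The other 31 came mostly from the KO libraries alone (23), where a single library is atria-poor. Of the 45 named genes whose classes overlapped, 17 changed sign under some alternative. None of the 34 without overlap did, but non-overlap all but fixes the sign in advance, so this is no measure of stability. Non-overlap is easier to reach with fewer libraries. Genes at least 2-fold higher numbered 613 in the KO libraries alone, and 107 to 155 with 1 library left out. Genes at least 2-fold lower numbered 27 without a filter, 28 in Flox alone, 101 in KO alone, 9 without the 3 KO sedentary libraries, 13 without KO sedentary 2 and 3, and 4 to 10 with 1 library left out. All genes higher without overlap numbered 935 in Flox alone, 2902 in KO alone, 344 without the 3 KO sedentary libraries and 221 to 306 with 1 library left out. Those lower numbered 846, 2923, 276 and 161 to 365 under the same settings.

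With the class as a term, KO over Flox averaged gave 8 genes without the term, 29 by DESeq2, 289 without a filter and 1 to 7 with 1 library left out. Exercise over sedentary averaged gave 4, 86, 625 and 0 to 90 in the same order. KO over Flox under the sedentary label gave 19, 63, 532 and 0 to 108, and 3 with the continuous atrial mean as the term. The interaction gave 35 by DESeq2, 583 without a filter and 0 to 87 with 1 library left out. Of the genes called without a filter, 274, 598, 507 and 570 were among the 15226 that the filter keeps, against the 4, 1, 6 and 0 called with it, so these counts depend on the filter; the cause was not tested.

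The replicate numbers did not pair the libraries: correlations of same-numbered deviations ran from -0.319 to 0.306, 6 of 18 pairs were above 0.1 and 5 of 12 libraries correlated best with their own number. With a replicate block, 105 genes were at least 2-fold higher without overlap, 2 at least 2-fold lower, and 5, 2, 9 and 0 genes passed for KO over Flox averaged, exercise over sedentary averaged, KO over Flox under the sedentary label and the interaction.

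Depth limits the genes that are near 0 in the atria-poor libraries, where differences of Myl7, Sln and Tmem163 rest on 46, 17 and 6 counts. The same holds for other genes, such as Mlana (16 counts), Fgf12 (25), Cilp2 (26), Lmntd1 (39) and Rxfp1 (41). Bmp10, with 2, and Hamp, with 0, were given as counts only. A single KO library is atria-poor, so the class within KO rests on it.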
